A study of Homo sapiens with 16 samples.

Results

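Replicate 1 of NCI-H1975, a human lung adenocarcinoma cell line, was compared with replicate 2 of the same line, and the 6 libraries of that comparison are 6 of the 16 samples of the series. They are the control, magnolin and chloroform fraction library of each replicate, so that each replicate number holds 3 libraries and the contrast has 3 pairs, 1 per treatment. The choice rested on measured values: replicate 1 was chosen by its FPKM values, since EPCAM and CDH1 read high in it and NNMT and SPARC low. Every difference between replicates 1 and 2 is therefore given as a description, with no p-value.

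The series sets magnolin, a lignan of the magnolia flower bud Flos Magnoliae, and a chloroform fraction of that drug beside untreated control cells. The control, magnolin and fraction groups are all wild-type NCI-H1975 cells, labelled as epithelium and as lung cancer cells, with 4 replicates in each treatment group. The labels give no dose and no exposure time. Replicates 3 and 4 (6 libraries) and parental HCC827, another lung adenocarcinoma line (2 libraries), were normalized separately and serve for comparison only. The labels do not say whether replicates came from separate cultures, so the spread between libraries may be technical.

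The depth was 18.4 to 21.3 M rebuilt reads in the 6 libraries of replicates 1 and 2, and 12106 to 12247 genes reached 1 FPKM (fragments per kilobase of gene, scaled to library size) in each. Mitochondrial transcripts took 7.60 to 9.42% of reads in replicate 1 and 8.06 to 8.80% in replicate 2, so the ranges overlapped. Of 58735 genes, 12443 reached 1 FPKM in at least 3 of the 6 libraries and are called measured.

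Epithelial cells hold together through adherens junctions built on E-cadherin (CDH1) and tight junctions built on claudins, while mesenchymal cells loosen these contacts and lay down matrix. In epithelial to mesenchymal transition, a programme that carcinoma cells can enter in part or in full, the repressors ZEB1, ZEB2, SNAI1 and SNAI2 bind E-boxes in epithelial promoters. EPCAM is an epithelial adhesion molecule, NNMT methylates nicotinamide and so uses the methyl donor S-adenosylmethionine, and SPARC is a secreted glycoprotein that binds collagen.

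The promoters of 6 genes that read higher in replicate 1 are shown because short motifs in this window were found at different shares in the genes of either direction. Each runs 5′ to 3′ on the gene's own strand, from 250 bases before the start to 50 after it, as RefSeq gives it on GRCh38.p14. The first 4 hold the E-box CAGGTG, in capitals and in either orientation, and the last 2 hold the AP-1 motif TGACTCA in capitals. AP1M2 (chr19:10587263-10587562, minus strand) encodes an epithelial sorting adaptor subunit, LAD1 (chr1:201399275-201399574, minus strand) the filament protein ladinin, AREG (chr4:74444886-74445185, plus strand) the EGFR ligand amphiregulin, and CLDN3 (chr7:73770221-73770520, minus strand) a claudin. CLDN4 (chr7:73830746-73831045, plus strand) is a further claudin, and SPINT1 (chr15:40843798-40844097, plus strand) inhibits the membrane protease ST14.
AP1M2: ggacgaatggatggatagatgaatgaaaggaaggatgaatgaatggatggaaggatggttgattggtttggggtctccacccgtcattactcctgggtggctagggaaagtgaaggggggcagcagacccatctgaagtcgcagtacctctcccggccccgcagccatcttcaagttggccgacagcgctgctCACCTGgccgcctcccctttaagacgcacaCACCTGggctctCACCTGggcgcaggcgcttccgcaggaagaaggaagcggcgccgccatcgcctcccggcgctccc
LAD1: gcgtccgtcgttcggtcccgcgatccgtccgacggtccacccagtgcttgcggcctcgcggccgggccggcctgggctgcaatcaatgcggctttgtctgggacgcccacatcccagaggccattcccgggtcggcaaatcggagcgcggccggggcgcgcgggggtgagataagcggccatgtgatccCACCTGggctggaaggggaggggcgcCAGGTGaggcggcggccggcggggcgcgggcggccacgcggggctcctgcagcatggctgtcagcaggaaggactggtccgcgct
AREG: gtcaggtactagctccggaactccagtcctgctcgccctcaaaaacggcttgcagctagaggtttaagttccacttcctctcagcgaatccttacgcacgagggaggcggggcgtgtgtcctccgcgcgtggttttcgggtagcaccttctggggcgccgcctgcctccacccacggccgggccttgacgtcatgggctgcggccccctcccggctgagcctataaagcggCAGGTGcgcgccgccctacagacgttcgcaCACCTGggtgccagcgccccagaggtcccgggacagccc
CLDN3: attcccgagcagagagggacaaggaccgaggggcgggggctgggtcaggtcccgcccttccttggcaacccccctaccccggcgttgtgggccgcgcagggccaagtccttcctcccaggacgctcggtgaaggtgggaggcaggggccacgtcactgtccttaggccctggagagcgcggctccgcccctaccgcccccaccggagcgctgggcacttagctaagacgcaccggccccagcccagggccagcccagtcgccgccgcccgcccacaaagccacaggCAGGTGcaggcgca
CLDN4: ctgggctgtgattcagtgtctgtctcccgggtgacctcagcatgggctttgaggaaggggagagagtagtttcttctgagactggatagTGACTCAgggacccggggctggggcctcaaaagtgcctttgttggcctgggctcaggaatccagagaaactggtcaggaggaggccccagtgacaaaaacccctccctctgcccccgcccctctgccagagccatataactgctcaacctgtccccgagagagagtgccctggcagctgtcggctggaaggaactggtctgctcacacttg
SPINT1: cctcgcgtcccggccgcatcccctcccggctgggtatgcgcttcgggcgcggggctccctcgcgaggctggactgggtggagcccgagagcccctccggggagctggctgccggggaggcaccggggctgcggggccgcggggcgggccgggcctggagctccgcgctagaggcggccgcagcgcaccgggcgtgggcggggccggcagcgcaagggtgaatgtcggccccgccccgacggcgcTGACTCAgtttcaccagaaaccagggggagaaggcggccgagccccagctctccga

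In AP1M2 the 3 E-boxes begin 57, 27 and 15 bases before the start. LAD1 holds 2, which begin 61 and 35 bases before the start and lie in opposite orientations. The 2 E-boxes of AREG lie on either side of the start, 19 bases before it and 11 bases after it. The E-box of CLDN3 begins 36 bases after the start, and the AP-1 motifs of CLDN4 and SPINT1 begin 161 and 6 bases before it.

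The 4 genes that define the contrast differed severalfold and without overlap in every treatment pair (coordinates on hg38). EPCAM (ENSG00000119888, chr2:47345158-47387601) stood at 193, 172 and 178 FPKM in the control, magnolin and fraction library of replicate 1. It stood at 14.4, 9.62 and 11.6 FPKM in the same order in replicate 2. The mean difference on the log2(FPKM + 1) scale, replicate 1 minus replicate 2, was 3.84 ± 0.18 (SD, n = 3 pairs). CDH1 (ENSG00000039068, chr16:68737225-68835548) read 70.9, 54.2 and 74.2 FPKM against 5.31, 4.88 and 5.92, a log2 difference of 3.39 ± 0.15 (SD, n = 3 pairs). Both epithelial genes were thus high in all 3 libraries of replicate 1.

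NNMT (ENSG00000166741, chr11:114257787-114313285) went the other way, at 4.75, 5.82 and 2.80 FPKM in replicate 1 and 113, 98.7 and 68.1 FPKM in replicate 2. Its log2 difference of -4.12 ± 0.23 (SD, n = 3 pairs) was the largest in size of all measured genes in the mean over pairs. SPARC (ENSG00000113140, chr5:151661096-151687165) read 12.5, 10.4 and 12.6 FPKM against 63.4, 60.8 and 64.9, a log2 difference of -2.32 ± 0.10 (SD, n = 3 pairs). These values chose the replicates and support nothing further. In these bulk samples, fewer cells of a type and less RNA per cell cannot be told apart.

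**Figure D1:**
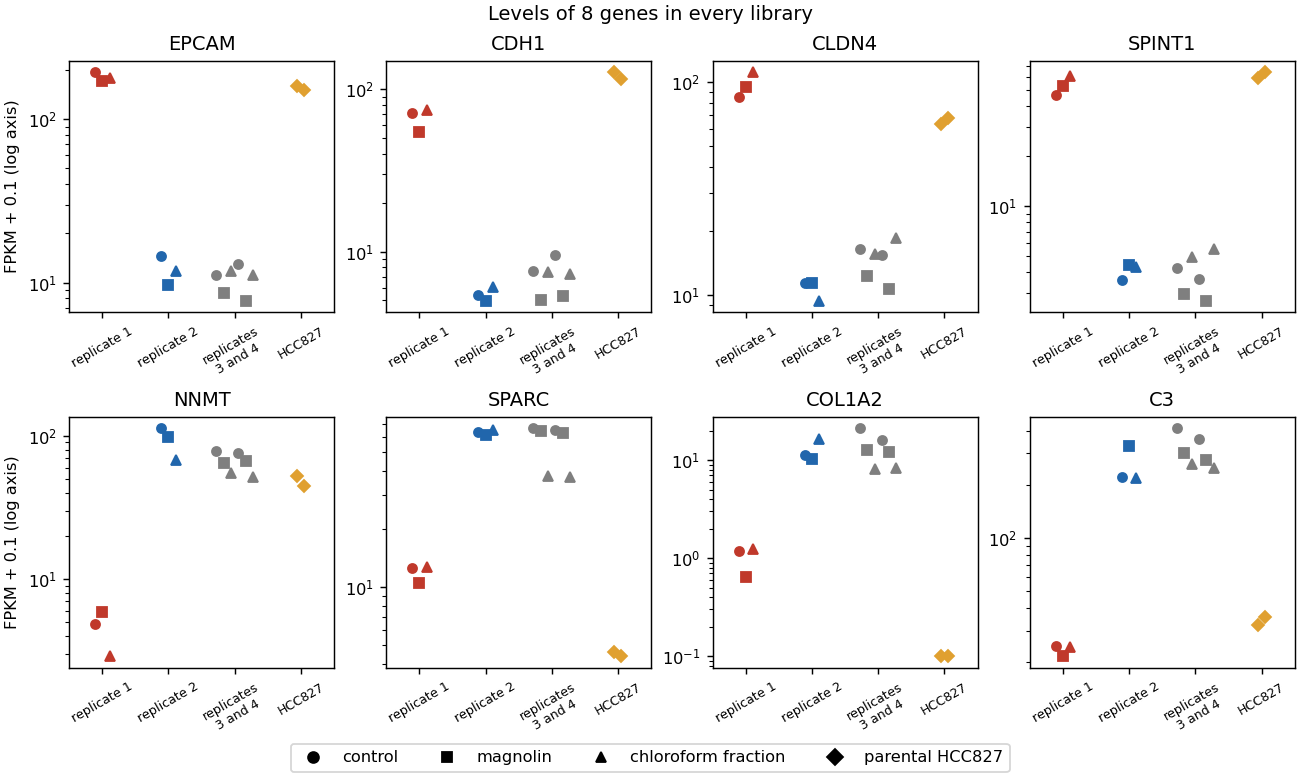
Level of 8 genes in every library, as FPKM plus 0.1 on a log axis, with 1 point per library and the symbol giving the treatment. The 3 libraries of replicate 1 lie apart from replicate 2 in each panel, and replicates 3 and 4, normalized separately, lie near replicate 2.

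Replicates 3 and 4, whose values played no part in the choice, read like replicate 2 for these genes. EPCAM was at 7.65 to 13.0 FPKM in their 6 libraries and CDH1 at 4.89 to 9.39 FPKM, below every replicate 1 library. NNMT was at 51.9 to 78.6 FPKM and SPARC at 37.1 to 66.3 FPKM, above every replicate 1 library. Since the 2 sets were normalized separately, these levels are set side by side without a test. The same placement held across the genome for most genes of the contrast.

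Across all measured genes, 396 (3.18%) were at least 2-fold higher in replicate 1 in all 3 pairs, and 294 (2.36%) were at least 2-fold higher in replicate 2, on the log2(FPKM + 1) scale. The first group holds 312 protein-coding genes, and 61 of the 396 reached 4-fold in every pair. The second group holds 260 protein-coding genes, and 40 of the 294 reached 4-fold in every pair. Just inside the 2-fold limit stood ZNF544, with a smallest pair difference of 1.0 (log2), and just outside it IFITM1, at 0.996. In either direction together, 690 genes (5.55%) passed. This count shrank to 376 where a mean FPKM of at least 5 was asked for and grew to 1137 with a pseudocount of 0.1.

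Replicates 3 and 4 differed far less by the same rule: 11 of 13594 genes (0.0809%) were at least 2-fold apart in all 3 pairs. A limma test of replicate 3 against 4, adjusted by Benjamini-Hochberg, called 0 genes, while 474 had an unadjusted p under 0.05; voom on rebuilt reads called 3. The median size of the difference over all genes was 0.339 (log2) between replicates 1 and 2 and 0.0685 between replicates 3 and 4. The 3 and 3 libraries of replicates 1 and 2 did not overlap for 6215 of 12443 genes (49.9%; 25.1% higher in replicate 1 and 24.9% in replicate 2), and those of replicates 3 and 4 did not overlap for 501 of 13594 (3.69%).

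Replicate number carried 71.1% of the sum of squares over genes in replicates 1 and 2, treatment 17.1% and the remainder 11.8%. In replicates 3 and 4 the order was turned, with 11.4% for replicate number and 65.8% for treatment. The replicate 1 minus 2 differences of the control and magnolin pairs correlated across genes at Pearson's r = 0.764, those of the control and fraction pairs at 0.788, and those of the magnolin and fraction pairs at 0.805. The replicate 3 minus 4 differences gave 0.068, -0.029 and -0.029. Genes are not independent replicates, and these correlations describe the libraries only.

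**Figure D2:**
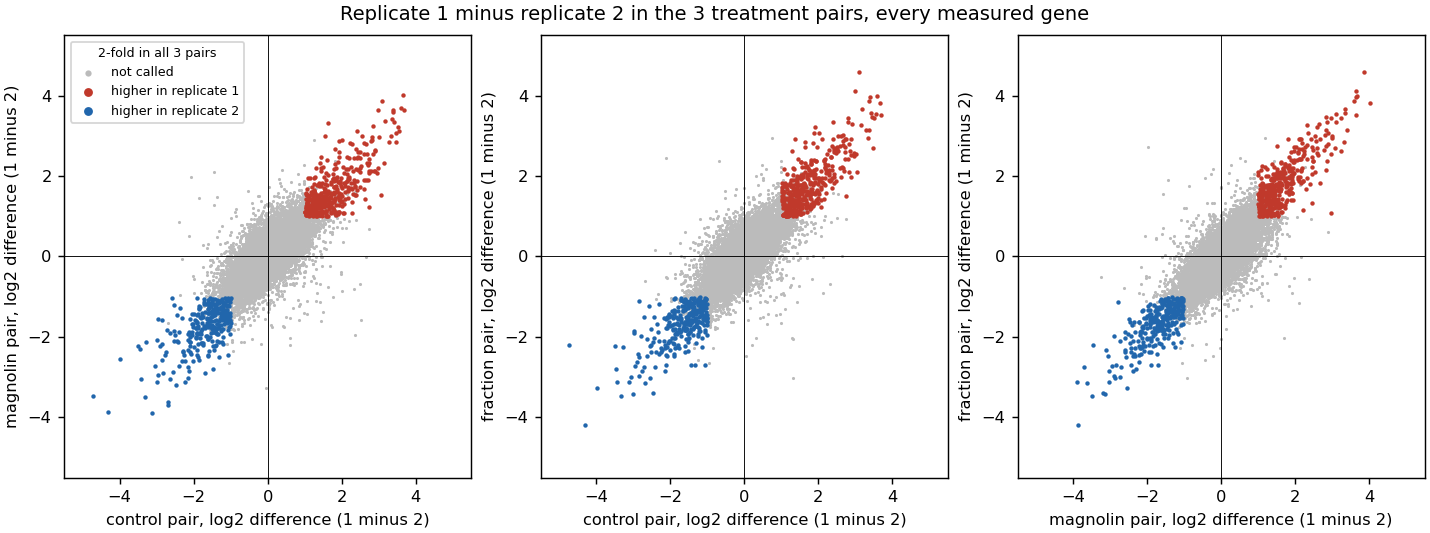
Difference replicate 1 minus replicate 2 on log2(FPKM + 1) in one treatment pair against another, 1 point per measured gene. The 396 genes at least 2-fold higher in replicate 1 in all 3 pairs are red, the 294 higher in replicate 2 blue, and the cloud runs along the diagonal in all 3 panels.

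Of the 396 genes higher in replicate 1, 380 (96.0%) had a median in replicates 3 and 4 nearer to replicate 2 than to replicate 1. Of the 294 higher in replicate 2, 284 (96.6%) lay nearer to replicate 2. Over all measured genes the figure was 8541 of 12443, or 68.6%. Between libraries of the same treatment, the root mean square distance over genes was 0.678 to 0.696 (log2) from replicate 1 to 2 and 0.702 to 0.827 from replicate 1 to 3 or 4. From replicate 2 to 3 or 4 it was 0.373 to 0.591, and from replicate 3 to 4 it was 0.225 to 0.305. Replicate 1 was therefore the number farthest from the others among the 12 NCI-H1975 libraries. Replicate 2 also lay farther from replicates 3 and 4, normalized separately, than these lay from each other. Parental HCC827 lay nearer to replicate 1 for 215 of the 396 genes and for 212 of the 294, against 6784 of all 12443. In shares nearer to replicate 2 this is 45.7%, 27.9% and 45.5%, so the 396 genes were at the level of all genes in that line.

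Of 29 measured junction genes, 14 were at least 2-fold higher in replicate 1 in every pair and 1 in replicate 2, with a median log2 difference of 1.42 against 0.00186 over all measured genes. For this list and those below, the shares over all measured genes were 3.18% higher in replicate 1 and 2.36% in replicate 2. EPCAM and CDH1, whose values chose the contrast, are among the 14, so their part in the count and median was fixed beforehand. CLDN7, a tight junction claudin, stood at 35.5, 53.3 and 66.7 FPKM in replicate 1 and 3.62, 3.32 and 2.92 FPKM in replicate 2. CLDN4 stood at 85.2, 94.3 and 111 FPKM against 11.3, 11.2 and 9.31, and CLDN3 at 29.1, 26.5 and 25.5 FPKM against 3.01, 3.39 and 1.69. The 3 claudins were high in every replicate 1 library, although close copies can share reads under a counting rule that is not given. CLDN3 and CLDN4 lie on chromosome 7 between 70 and 80 Mb, where the median log2 difference was 0.59. There 44 of 57 genes were higher in replicate 1 in all pairs, against 310 of 655 (47.3%) on the whole chromosome. The part of position in their difference was not tested.

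P-cadherin (CDH3) read 46.5, 45.0 and 57.2 FPKM in replicate 1 and 8.04, 6.22 and 6.73 FPKM in replicate 2. Occludin (OCLN), a tight junction protein, read 7.96, 6.03 and 6.59 FPKM against 0.670, 1.22 and 0.932. The list was not uniform: CXADR, a virus receptor of tight junctions, read 5.11, 4.47 and 3.15 FPKM in replicate 1 and 11.2, 10.2 and 11 FPKM in replicate 2. CLDN1 was also lower in replicate 1, at 10.2, 3.68 and 5.44 FPKM against 20.4, 22.9 and 19.9, without reaching 2-fold in every pair. The desmosomal linker desmoplakin (DSP) overlapped between the replicates, at 26.7, 21.4 and 22.3 FPKM against 20.2, 31.8 and 24.2.

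Among 15 measured epithelial regulators, 9 were at least 2-fold higher in replicate 1 and 0 in replicate 2, with a median of 1.5. ESRP1, a splicing factor that keeps epithelial isoforms, stood at 23.7, 20.1 and 19.5 FPKM in replicate 1 and 1.45, 1.63 and 1.63 FPKM in replicate 2. Its relative ESRP2 read 11.7, 10.8 and 16.3 FPKM against 3.27, 2.87 and 3.19. GRHL2, a transcription factor of epithelial junction genes, read 6.05, 5.68 and 6.77 FPKM against 0.555, 0.485 and 0.444. No replicate 1 library overlapped replicate 2 for these 3 genes. All 3 passed 2-fold in every pair, which nearly fixes this, and 49.9% of all measured genes did not overlap either.

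The endoderm factor FOXA2 read 9.44, 7.33 and 8.51 FPKM against 1.06, 0.513 and 0.703. OVOL1 and OVOL2, repressors of mesenchymal genes, were at 1.56 to 2.67 and 2.61 to 3.61 FPKM in replicate 1 and at most 0.166 and 0.344 FPKM in replicate 2. The epithelial factor ELF3 did not follow, at 5.22, 6.64 and 4.02 FPKM against 7.88, 5.35 and 4.59.

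Of 27 measured epithelial surface and keratin genes, 13 were at least 2-fold higher in replicate 1 and 2 in replicate 2 (median 1.38). The protease matriptase (ST14) and its inhibitor SPINT1 stood high together: ST14 read 35.8, 43.2 and 43.3 FPKM against 3.08, 3.30 and 2.51, and SPINT1 46.7, 52.9 and 60.7 FPKM against 3.49, 4.33 and 4.21. KRT7, a keratin of simple epithelia, read 354, 321 and 406 FPKM against 64.9, 52.0 and 61.9. AP1M2 read 14.9, 15.4 and 16.2 FPKM against 1.31, 1.25 and 0.705, and MAL2, a transcytosis protein, 107, 69.5 and 76.6 FPKM against 12.3, 8.03 and 12.2.

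LAMA3 and LAMB3, laminin chains of epithelial basement membranes, were higher in replicate 1: LAMA3 at 7.49 to 10.6 FPKM against 1.36 to 2.30, and LAMB3 at 228 to 325 against 70.0 to 88.3. The keratin pair of simple epithelia that both replicates share did not separate them. KRT8 read 119, 126 and 134 FPKM in replicate 1 and 171, 129 and 118 FPKM in replicate 2. KRT18 read 188, 170 and 205 FPKM against 174, 96.3 and 112. The label of epithelial cells therefore had its defining keratins in both replicates, while the junction genes marked replicate 1.

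KRT17, a keratin of basal and stressed epithelia, ran against its list, at 0.293, 0.594 and 0.535 FPKM in replicate 1 and 9.37, 12.9 and 15.5 FPKM in replicate 2, with near-identical copies that leave its value uncertain. LCN2, a secreted iron-siderophore binder, did so too, at 1.60, 0.864 and 0.983 FPKM against 16.2, 5.61 and 4.65.

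**Figure D3:**
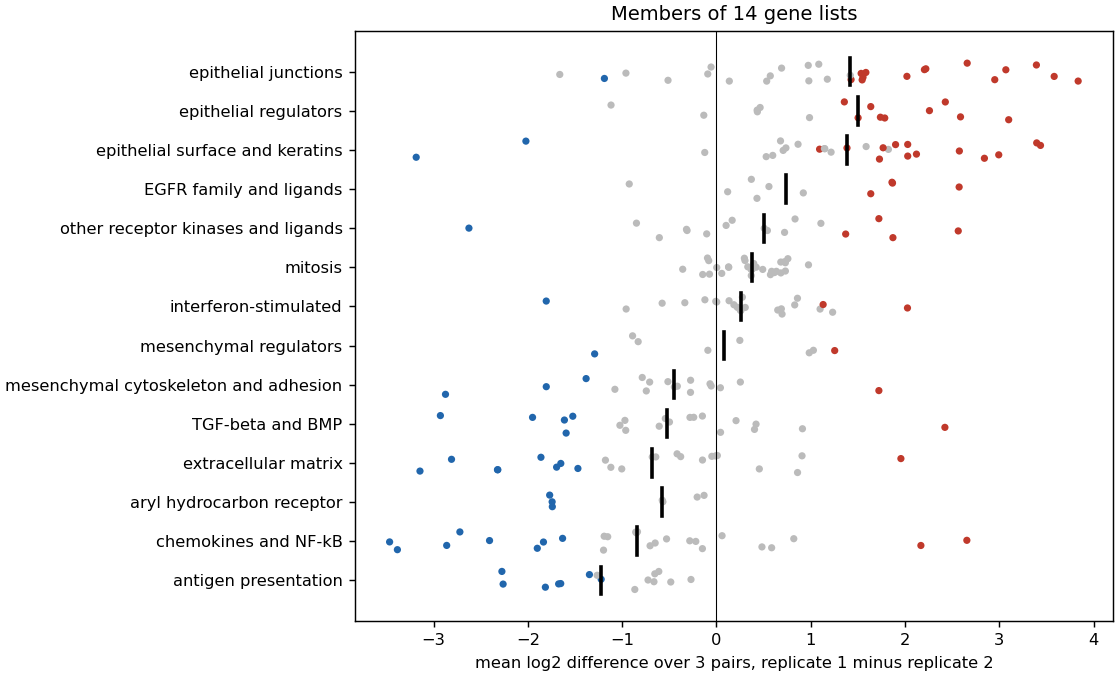
Mean difference replicate 1 minus replicate 2 on log2(FPKM + 1) over the 3 pairs, 1 point per measured member of 14 gene lists, with red and blue for at least 2-fold in all 3 pairs and a black bar at the list's median. The 3 epithelial lists have medians of 1.42, 1.5 and 1.38, and antigen presentation has the lowest median, -1.22.

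Mesenchymal regulators did not mirror the epithelial ones: of 8 measured, 1 was at least 2-fold higher in replicate 1 and 1 in replicate 2, with a median of 0.08. ZEB1 stood at 1.68, 1.14 and 1.13 FPKM in replicate 1 and 2.97, 3.31 and 3.54 FPKM in replicate 2. The groups did not overlap, but the mean log2 difference of -0.89 ± 0.28 (SD, n = 3 pairs) did not reach 2-fold. The control pair fell short, at -0.57, while the magnolin and fraction pairs passed 2-fold, at -1.01 and -1.09. SNAI1, also a repressor of CDH1, was higher in replicate 1, at 21.1, 22.4 and 22.4 FPKM against 8.20, 9.88 and 7.89. SNAI2 overlapped, at 10.04, 7.38 and 9.30 FPKM against 7.85, 11.6 and 9.29, and ZEB2 stayed under 1 FPKM in all 6 libraries. TWIST1 and TWIST2 were listed at 0 in all 6.

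Vimentin (VIM), the intermediate filament of mesenchymal cells, was abundant in both replicates, at 125, 107 and 111 FPKM in replicate 1 and 210, 167 and 201 FPKM in replicate 2. Of 17 measured genes of the mesenchymal cytoskeleton and adhesion, 3 were at least 2-fold higher in replicate 2 and 1 in replicate 1 (median -0.45). The calcium-binding S100A4 read 2.19, 0.829 and 1.58 FPKM against 23.8, 13.1 and 15.9, and the mesenchymal cadherin CDH11 0.412, 0.262 and 0.473 FPKM against 4.01, 3.75 and 3.70. The neural cadherin CDH2 stayed at or under 0.0618 FPKM in every library of both replicates.

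Extracellular matrix genes were mostly on the side of replicate 2, with 8 of 23 measured at least 2-fold higher there and 1 in replicate 1 (median -0.68). SPARC, whose values chose the contrast, is 1 of the 8. The fibril-associated collagen COL12A1 read 3.08, 2.35 and 2.43 FPKM in replicate 1 and 25.2, 39.9 and 29.2 FPKM in replicate 2. COL1A2, a chain of type I collagen, read 1.09, 0.543 and 1.14 FPKM against 11.2, 10.2 and 16.3. The collagen crosslinking enzyme LOX read 9.66, 4.39 and 7.22 FPKM against 24.6, 18.4 and 31.2. Fibronectin (FN1) overlapped, at 45.0, 30.5 and 46.9 FPKM against 33.6, 45.0 and 41.8, and the laminin chain LAMB1 was higher in replicate 1, at 14.3, 6.88 and 14.5 FPKM against 2.61, 1.23 and 2.98.

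Of 11 measured matrix proteases and inhibitors, 2 were at least 2-fold higher in replicate 1 and 2 in replicate 2. The urokinase gene PLAU read 180, 212 and 284 FPKM in replicate 1 and 26.1, 38.8 and 37.0 FPKM in replicate 2, and the interstitial collagenase MMP1 16.7, 16.7 and 29 FPKM against 1.47, 0.867 and 3.88. The membrane-type protease MMP14 read 21.2, 21.0 and 34.6 FPKM against 66.4, 121 and 109, and tissue plasminogen activator (PLAT) 1.26, 1.15 and 1.43 FPKM against 4.98, 6.34 and 4.84. No library of one replicate overlapped those of the other for these 4 genes. Their choice by 2-fold in every pair nearly fixes this, and 49.9% of all measured genes did not overlap either.

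Markers of other cell types were looked at for whole lists. Of 9 fibroblast markers, 2 were measured, COL1A1 and COL1A2, and the summed level of the list was 2.15 to 3.48 FPKM in replicate 1 and 13.3 to 19.5 FPKM in replicate 2. The defining fibroblast genes DCN and PDGFRA were listed at 0 in all 6 libraries, and LUM stayed under 1 FPKM. The part of the fibroblast list in the matrix difference was not tested beyond these values. Of 11 blood cell markers only CSF1R was measured, with a summed level of 1.59 to 2.88 FPKM against 0.781 to 1.08. CD3E, MS4A1, LYZ, TYROBP and HBB were listed at 0. No endothelial marker of 8 and no neuroendocrine marker of 8 was measured. Of 9 squamous markers 3 were measured, with a summed level of 10.4 to 17.4 FPKM in replicate 1 and 1.62 to 3.02 FPKM in replicate 2. Most of that sum was SERPINB5, at 13.1, 6.91 and 11.7 FPKM in replicate 1 and 1.03, 0.813 and 1.37 FPKM in replicate 2. It alone passed 2-fold in every pair, and 6 of the 9 stayed under 1 FPKM in all 6 libraries.

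Of lung lineage genes, 7 of 24 were measured and 0 passed 2-fold in every pair. The lineage factor NKX2-1 read 5.72, 9.06 and 3.51 FPKM in replicate 1 and 1.61, 2.46 and 1.87 FPKM in replicate 2, and surfactant genes SFTPA1, SFTPB and SFTPC stayed under 1 FPKM in both.

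Among TGF-beta and BMP genes, 5 of 20 measured were at least 2-fold higher in replicate 2 and 1 in replicate 1 (median -0.52). The ligand BMP4 read 1.44, 0.534 and 0.662 FPKM in replicate 1 and 19.3, 9.16 and 12.3 FPKM in replicate 2. Its antagonist noggin (NOG) read 1.81, 1.91 and 2.05 FPKM against 10.9, 10.6 and 9.36, so ligand and antagonist lay on the same side. The accessory receptor TGFBR3 read 0.685, 0.439 and 0.319 FPKM against 3.43, 3.29 and 3.63. PMEPA1, a TGF-beta target that dampens SMAD signalling, was the exception, at 12.1, 10.8 and 16.8 FPKM against 1.33, 1.75 and 1.78.

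Receptor tyrosine kinase genes leaned to replicate 1. Of 10 measured members of the EGFR family and its ligands, 4 were at least 2-fold higher there and 0 in replicate 2 (median 0.74). EGFR itself, the driver receptor of these cells, read 36.8, 29.5 and 38.8 FPKM in replicate 1 and 14.7, 20.002 and 19.5 FPKM in replicate 2, without overlap but short of 2-fold in the magnolin and fraction pairs. Its level in replicates 3 and 4 was 24.8 to 33.4 FPKM, above every replicate 2 library. ERBB3, its kinase-impaired partner, read 2.53, 3.51 and 3.29 FPKM against 0.310, 0.337 and 0.298. ERBB2 overlapped, at 4.58, 7.52 and 6.36 FPKM against 3.38, 6.66 and 3.83.

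Ligand genes lay on the same side. AREG read 53.1, 41.9 and 71.9 FPKM in replicate 1 and 10.1, 5.22 and 10.6 FPKM in replicate 2. Epiregulin (EREG) read 72.2, 30.4 and 69.6 FPKM against 13.2, 9.82 and 20.7, and TGFA 21.9, 20.1 and 26.8 FPKM against 4.07, 5.75 and 7.16. Neuregulin (NRG1), the ligand of ERBB3, lay the other way, at 3.66, 2.17 and 3.49 FPKM against 7.14, 4.27 and 9.59, without reaching 2-fold in every pair.

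Of 17 other receptor kinases and ligands, 4 were at least 2-fold higher in replicate 1 and 1 in replicate 2 (median 0.51). MET, the receptor of hepatocyte growth factor, read 116, 86.0 and 84.4 FPKM against 32.8, 38.0 and 36.9. MERTK read 7.49, 5.92 and 9.01 FPKM against 0.298, 0.432 and 0.527. AXL, a kinase often tied to mesenchymal states, was on the epithelial side here, at 23.8, 18.6 and 25.4 FPKM against 7.34, 4.30 and 7.09. MST1R, the receptor of macrophage-stimulating protein, read 15.6, 13.3 and 21.6 FPKM against 3.75, 3.29 and 4.37. In replicates 3 and 4 MST1R was at 7.84 to 14.4 FPKM, above every replicate 2 library and overlapping replicate 1. AXL, at 7.41 to 10.3 FPKM there, was also above every replicate 2 library but below every replicate 1 library. MET and MERTK overlapped replicate 2 there.

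Of 18 measured genes of the ERK output list, 2 were at least 2-fold higher in replicate 1 and 1 in replicate 2 (median 0.37). A link from the receptors to these genes was not tested. Of the genes that passed, cyclin D1 (CCND1) read 158, 131 and 167 FPKM in replicate 1 and 42.9, 37.9 and 64.8 FPKM in replicate 2. The AP-1 subunit FOSL1 read 161, 160 and 218 FPKM against 63.9, 56.8 and 68.3. MYC was lower in replicate 1, at 132, 133 and 113 FPKM against 365, 359 and 299. MYC was at 120 to 227 FPKM in replicates 3 and 4, so replicate 2 was the high one for this gene.

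Antigen presentation had the lowest median of the lists with at least 3 measured members, -1.22: 7 of 15 measured members were at least 2-fold higher in replicate 2, 0 in replicate 1, and all 15 were lower in replicate 1 in every pair. Over all genes, 7984 of 12443 (64.2%) had 1 direction in every pair, higher and lower counted together, against 21.8% between replicates 3 and 4. On chromosome 6 alone, 372 of 599 genes (62.1%) were lower in replicate 1 in every pair. HLA-B, a class I heavy chain, read 54.0, 77.8 and 73.6 FPKM in replicate 1 and 315, 338 and 342 FPKM in replicate 2. The class II invariant chain CD74 read 3.40, 3.19 and 4.22 FPKM against 21.0, 24.1 and 18.2. The class I light chain B2M read 131, 138 and 118 FPKM against 214, 186 and 215. Reads of HLA genes are uncertain because the copies are alike, and 12 of the 15 members lie on chromosome 6, where the median gene was lower in replicate 1. The 3 members elsewhere had a median of -0.66 and the 12 on chromosome 6 one of -1.24.

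Of 26 measured chemokine and NF-kB genes, 8 were at least 2-fold higher in replicate 2 and 2 in replicate 1 (median -0.84). Complement C3 read 24.4, 21.4 and 24.1 FPKM in replicate 1 and 220, 332 and 219 FPKM in replicate 2. The monocyte chemokine CCL2 read 1.34, 0.642 and 0.290 FPKM against 24.8, 7.15 and 8.03, and the mitochondrial superoxide dismutase SOD2 10.4, 7.68 and 5.42 FPKM against 52.8, 51.2 and 32.5. The acute-phase gene SAA1 had 3 rebuilt reads in replicate 1 and 665 in replicate 2, and it shares sequence with close copies. The cytokines IL18 and IL11 ran the other way, IL18 at 36.0, 27.3 and 24.4 FPKM against 5.05, 6.52 and 5.43, and IL11 at 21.4, 71.2 and 117 FPKM against 4.55, 8.77 and 13.1.

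Interferon-stimulated genes did not move with antigen presentation, with 2 of 23 at least 2-fold higher in replicate 1 and 1 in replicate 2 (median 0.26). Over all measured genes the shares were 3.18% and 2.36%. IFI27 read 36.5, 36.3 and 47.7 FPKM in replicate 1 and 9.84, 8.72 and 8.58 FPKM in replicate 2. Tetherin (BST2) read 56.2, 53.9 and 60.4 FPKM against 233, 183 and 190. These genes of the same response lay on opposite sides.

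Of 15 measured genes of nicotinamide and methyl donor metabolism, NNMT alone passed 2-fold in every pair, while 10 were lower and 3 higher in replicate 1 in every pair at any size (median -0.24). NNMT is a gene that chose the contrast. Over all measured genes 64.2% had 1 direction in every pair, higher and lower counted together. NAMPT, which recycles nicotinamide to NAD, read 84.0, 81.8 and 71.2 FPKM in replicate 1 and 133, 130 and 153 FPKM in replicate 2. The urea cycle enzyme ASS1 was among the highest differences on the replicate 2 side, at 12.4, 19.3 and 16.2 FPKM against 144, 166 and 148. The aryl hydrocarbon receptor (AHR), a ligand-activated factor, read 14.2, 12.2 and 9.47 FPKM against 42.8, 43.1 and 42.1. Its target CYP1B1 read 68.6, 95.1 and 95.7 FPKM against 199, 332 and 364, and its repressor AHRR 0.910, 0.865 and 1.08 FPKM against 3.42, 7.38 and 6.46, while its classic target CYP1A1 overlapped.

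Proliferation genes showed small differences. Of 29 measured mitosis genes 0 passed 2-fold in either direction, 13 were higher in replicate 1 in all pairs and 0 lower, with a median of 0.38. Over all measured genes 64.2% had 1 direction in all pairs, higher and lower counted together. The summed mitosis list read 1365, 1202 and 1126 FPKM in replicate 1 and 1296, 601 and 1071 FPKM in replicate 2. Its gap lay mainly in the magnolin pair, with 1 library on either side. Of 30 S phase genes only RRM2, a subunit of ribonucleotide reductase, passed, at 73.9, 68.1 and 61.8 FPKM in replicate 1 and 25.6, 13.9 and 27.0 FPKM in replicate 2. Over all measured genes 3.18% passed in that direction. The summed S phase list read 994, 1006 and 918 FPKM against 1139, 625 and 937, higher in replicate 1 in the magnolin pair only. MKI67, a proliferation marker, read 35.1, 26.9 and 30.5 FPKM against 23.1, 15.2 and 21.5.

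Outside the lists, some of the highest protein-coding differences belonged to genes of other roles. LAD1 read 26.9, 25.4 and 37.9 FPKM in replicate 1 and 1.31, 1.06 and 1.44 FPKM in replicate 2. The Wnt ligand WNT9A read 56.9, 69.0 and 86.8 FPKM against 4.52, 4.62 and 4.62, and the ectonucleotidase ENTPD3 15.9, 19.8 and 30.8 FPKM against 0.620, 0.724 and 1.18. On the other side, the lipid raft protein RFTN1 read 1.53, 0.812 and 1.29 FPKM against 24.4, 19.3 and 24.5. WNT9A and ENTPD3 read 1.42 and 1.48 FPKM, and 0.101 and 0.256 FPKM, in parental HCC827, both below every replicate 2 library.

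By pattern over the 6 libraries, the genes most like CDH1 were LIAS, TBC1D30, GUCY1B1 and RHPN2, with Pearson's r of log2(FPKM + 1) from 0.998 to 0.999 (6 libraries). KRT7 and LAD1 were also among the 10 most alike. For NNMT they were MYC, USP28 and FBXO7, with r from 0.998 to 0.999. With 3 libraries on either side, these values mostly record the step between replicates.

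The E-box shown in capitals above was found at a higher share in one direction. Of 8626 measured protein-coding genes with a RefSeq promoter (of 10761), 17.9% held CAGGTG on either strand in the window of 300 bases. Among the 212 matched of 312 protein-coding genes higher in replicate 1 the share was 34.9% (74). Among the 188 matched of 260 higher in replicate 2 it was 12.8% (24). Over all 27305 promoters of the table the share was 20.6%. EPCAM, CDH1, ST14 and ESRP1 had no matched promoter and are not among the 212. The AP-1 motif TGACTCA or TGAGTCA was in 8.02% (17), 3.19% (6) and 2.94% in the same order, and in 4.92% of the whole table.

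The TEAD motif GGAATG on either strand was in 13.2% of promoters of genes higher in replicate 1, 13.3% of those higher in replicate 2 and 10.7% of all measured. The GRHL motif AACCNGTT was in 1.42%, 1.06% and 1.26%, and none of the 4 motifs contains another. Median GC content was 66.0%, 63.5% and 65.7% in that order. Without the genes on the 3 epithelial lists, an alternative chosen after seeing the data, the E-box share was 32.7% of 196. A match describes letters and not a bound site.

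**Figure D4:**
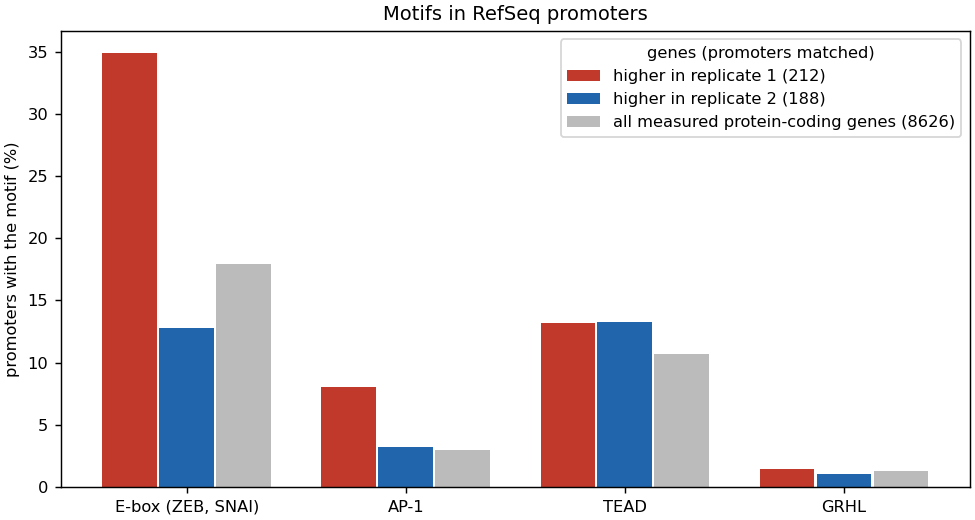
Share of RefSeq promoters of 300 bases that hold each motif, in percent, for genes at least 2-fold higher in replicate 1 (red), in replicate 2 (blue) and all measured protein-coding genes (grey). The E-box stands at 34.9%, 12.8% and 17.9%, and the TEAD motif at 13.2%, 13.3% and 10.7%.

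Differences between replicates 1 and 2 also ran in blocks along chromosomes. In 231 windows of 10 Mb with at least 20 measured genes, on the deposited hg38 coordinates, the median log2 difference ranged from -0.74 to 1.0 (SD over windows 0.266). Replicate 3 minus 4 gave window medians from -0.08 to 0.09 (SD 0.0258). Replicate 2 minus the median of replicates 3 and 4 had an SD over windows of 0.0916, and replicate 1 minus that median 0.254. Window medians of at least 0.3 in size numbered 32 above and 24 below 0 for replicate 1 minus 2. They numbered 0 for replicate 3 minus 4.

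Chromosome 6 was lower in replicate 1 in its median over 599 genes, -0.38. The median was -0.39, -0.35 and -0.43 in the control, magnolin and fraction pairs. There 372 genes (62.1%) were lower in replicate 1 in all pairs and 69 (11.5%) higher. On the other chromosomes the share lower in all pairs ran from 12.7% (chromosome 15) to 49.2% (chromosome 13). The share higher ran from 15.3% (chromosome 13) to 55.4% (chromosome 15). Replicate 2 minus replicates 3 and 4 gave 0.02 on chromosome 6. Without the genes past 2-fold, chosen after seeing the data, the chromosome 6 median was -0.36. Its windows from 0 to 40 Mb had medians of -0.63, -0.56, -0.49 and -0.49. Those at 70 to 80 and 150 to 160 Mb had medians of -0.03 and -0.05, so the size of the shift varied along the chromosome.

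On chromosome 5, the windows at 30 to 40 and 40 to 50 Mb had medians of -0.58 and -0.74, and in the latter 16 of 20 genes were lower in replicate 1 in all pairs. On the whole of chromosome 5, 259 of 581 genes (44.6%) were lower in all pairs. On chromosome 8, the window at 80 to 90 Mb had the highest median, 1.0, with 20 of 22 genes higher in replicate 1 in all pairs and 0 lower. It holds TPD52, PAG1, RIPK2 and NBN, at log2 differences of 0.74, 1.01, 1.56 and 1.02. Without its 6 genes past 2-fold the median was 0.72. On the whole of chromosome 8, 156 of 422 genes (37.0%) were higher in replicate 1 in all pairs.

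Chromosome 19 changed sign along its length. The window at 10 to 20 Mb had a median of -0.54 over 214 genes and that at 50 to 60 Mb one of 0.67 over 203 genes. Of these 203, 176 were higher in replicate 1 in all pairs, against 336 of 948 (35.4%) on the whole chromosome. In the window at 50 to 60 Mb replicate 2 also differed from replicates 3 and 4, by -0.25, and replicate 1 minus replicates 3 and 4 was 0.40. At 20 to 30 Mb the median of replicate 1 minus 2 was 0.68, replicate 2 differed from replicates 3 and 4 by -0.32, and replicate 1 by 0.30. The chromosome carries clusters of zinc finger (ZNF) repressor genes: its 209 measured ZNF genes had a median of 0.47, 195 ZNF genes elsewhere 0.05, and the other 739 genes of the chromosome -0.13. Within 50 to 60 Mb, 102 ZNF genes had a median of 0.69 and 101 other genes 0.62, while at 20 to 30 Mb 25 ZNF genes had a median of 0.97 and 29 other genes 0.11. Zinc finger genes are alike, and reads shared between copies cannot be told apart. DNA copy number was not measured in these libraries, and its part in these blocks was not tested.

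**Figure D5:**
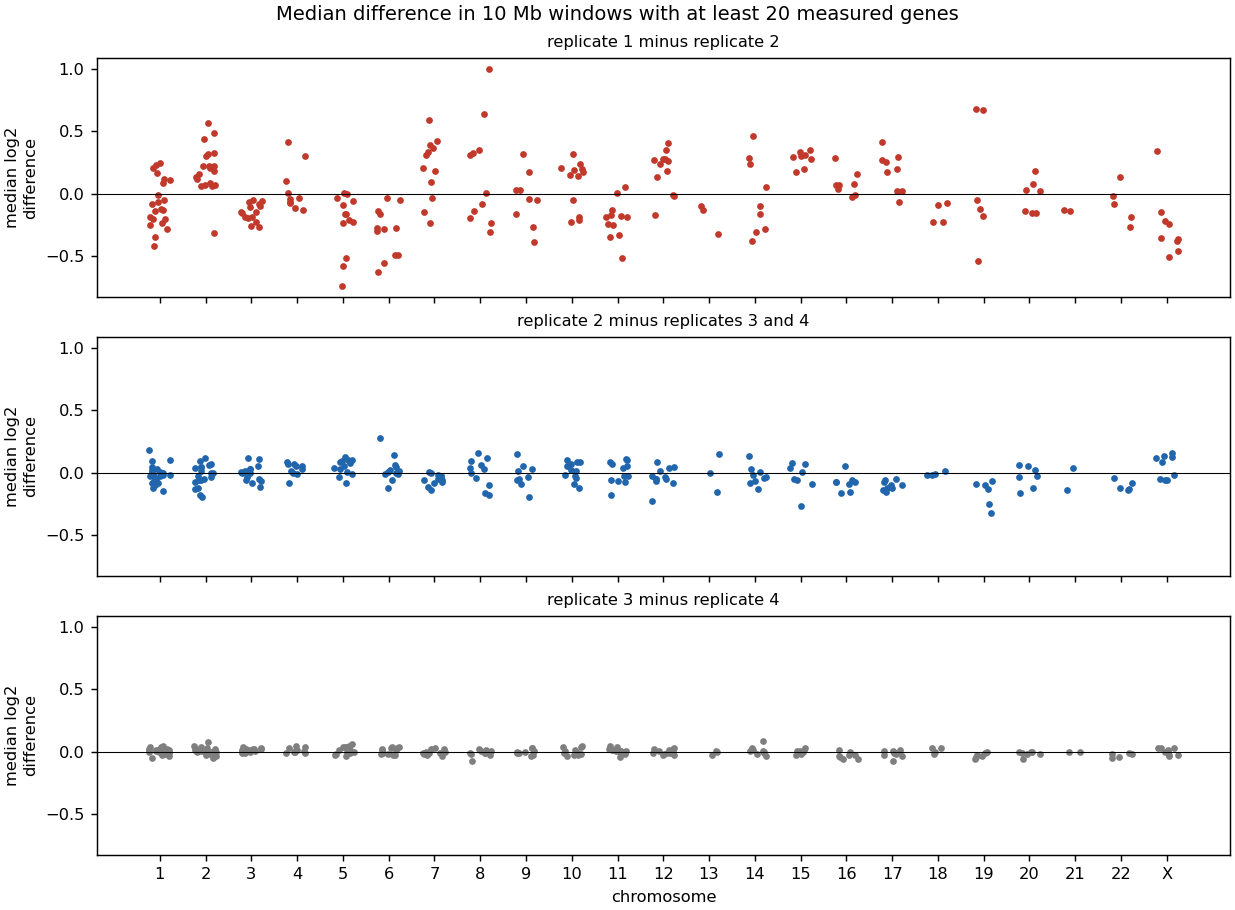
Median log2 difference in 10 Mb windows with at least 20 measured genes, 1 point per window, by chromosome, for replicate 1 minus 2 (red), replicate 2 minus replicates 3 and 4 (blue) and replicate 3 minus 4 (grey). The red medians range from -0.74 to 1.0 and the grey ones from -0.08 to 0.09.

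Treatment was tested across all genes within each set with limma's F test. In replicates 1 and 2 it called 0 genes at an adjusted p under 0.05, while 106 had an unadjusted p under 0.05; voom called 0. With the replicate number as a block it called 227 of 12443 (1.82%). In replicates 3 and 4 the same test without the block called 2582 of 13594 (19%), and with the block 1827 (13.4%). Without the block, that count was 908 without control replicate 3, 871 without control replicate 4, 1366 without magnolin replicate 3 and 1202 without magnolin replicate 4, and 998 with no filter on low values. The 2 sets were tested apart, and the difference between them was not tested.

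Of the 396 genes higher in replicate 1, 15 (3.79%) were called for treatment with the block, and of the 294 higher in replicate 2, 18 (6.12%). For 394 of the 396 and 293 of the 294, every treatment change in either replicate was smaller than the replicate difference. The choice of these genes by that difference nearly fixes this count, which was 5209 of 12443 over all measured genes. The chemokine CCL2 fell by 1.08 (log2) with magnolin and by 1.19 with the fraction (limma with the replicate block, adjusted p = 0.00529), lower in both replicates, beside its replicate difference of -2.86. EREG fell by 0.81 with magnolin and differed by 0.28 with the fraction (adjusted p = 0.020). BMP4 fell by 0.83 with magnolin and by 0.58 with the fraction (adjusted p = 0.040).

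The 4 defining genes did not pass this test: the adjusted p with the block was 0.795 for EPCAM, 0.759 for CDH1, 0.106 for NNMT and 0.977 for SPARC. NNMT differed by 0.03 with magnolin and by -0.66 with the fraction. An effect of either treatment on these genes was not detectable with 2 libraries in each group.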

How the data were processed

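Total RNA of cultured cells was sequenced, and NEB library reagents are named in the labels' protocols. The aligner, the read counter and the strand setting were not given in the sources used. Values were deposited by the authors as FPKM for each gene on the hg38 build, per the submitters' processing notes. Gene identifiers and coordinates of all 58735 genes matched GENCODE release 29. Columns were assigned to samples by name, and 2 columns that match no label were left out. Resistant HCC827 cells are not analysed here. FPKM times gene length came out as whole reads within 0.05 for all genes of up to 2000 reads, and these rebuilt reads gave the depth and an alternative test: 16.0 to 17.0 M in replicates 3 and 4 and 15.9 to 16.4 M in HCC827.

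From the deposited FPKM, log2(FPKM + 1) was computed, which understates changes of low genes. Genes at 1 FPKM or more in at least 3 of 6 libraries were kept, and a gene was counted where all 3 pairs differed by at least 1 (log2) in one direction. Tests used limma 3.58.1 in R 4.3.3 (empirical Bayes with trend, Benjamini-Hochberg, 0.05) and the fitting step was tested on simulated data. The members and all 39 gene lists were chosen with earlier results of these data known. Named genes were EPCAM, CDH1, NNMT, SPARC, 7 receptor and mesenchymal genes, the 14 highest in each direction by the smallest pair difference, and up to 5 members of each list. Other members of a list were chosen after their values were seen.

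Within replicates 1 and 2, libraries of 1 number deviated together (r of 0.764, 0.788 and 0.805 between pairs), so the numbers were taken to pair the samples there. In replicates 3 and 4 they did not (0.068, -0.029 and -0.029). Median-ratio factors were equal in all 6 libraries of replicates 1 and 2, so rescaling within that set changes nothing but the filter. RefSeq promoters were matched by symbol. No promoter was matched for CDH1, EPCAM, NNMT, ST14 and ESRP1, so these genes are neither shown nor counted in the motif shares.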

Additional observations from a re-analysis of the deposited data

Results flagged for a closer look

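In groups of 4 libraries of 1 treatment (replicates 1 to 4, from sets normalized separately), the gap of the outermost library to its neighbour, as a share of the group's range, was above Dixon's 95% limit in 19 of 33 groups over 11 genes, and the library was replicate 1 in all 19. Chance passes about 1 in 20 groups, but that rate does not hold here: EPCAM, CDH1, NNMT and SPARC, with 10 of the 19, chose the contrast, and the other genes were picked with earlier results known. The shares are a description and test nothing. The share was 0.911, 0.931 and 0.983 for EPCAM in control, magnolin and fraction, and 0.868, 0.841 and 0.908 for NNMT. It was 0.974 in magnolin and 0.918 in the fraction for CDH1, and 0.972 in control and 0.968 in magnolin for SPARC. ERBB3 gave 0.921, 0.962 and 0.885 in the 3 groups, and MET 0.866, 0.888 and 0.886. AXL gave 0.909 in control, ZEB1 0.835 in the fraction and VIM 0.988 in the fraction.

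For 3 genes both treatments changed the level at least 2-fold one way in replicate 1 and the other way in replicate 2, and this difference was not tested. The mean treatment change in replicate 1 minus that in replicate 2 was 3.60 (log2) for the small nucleolar RNA SNORD104, -3.07 for the ribosomal pseudogene RPL29P11 and -2.55 for the short RNA RF00019. SNORD104 rested on 8 rebuilt reads in replicate 1 and 6 in replicate 2, and RF00019 on 3 and 4, so these values rest on a handful of reads. RPL29P11, whose gene copies share sequence, had 193 and 124.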

How the results depend on the processing

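No value here changed direction. For the 119 named genes this says little, since leaving out a pair cannot turn a gene called in all pairs, and rescaling has the same factor, 1.01, for all 6 libraries. For 64 of them a pseudocount of 0.1 moved the value by more than the SD over pairs. The 690 genes past 2-fold between replicates 1 and 2 became 1137 with a pseudocount of 0.1 and 376 at a mean FPKM of at least 5, and 854 to 904 without 1 of the pairs. The 11 genes between replicates 3 and 4 became 27 with that pseudocount, 37 to 49 without 1 of the pairs, and 0 at a mean FPKM of at least 5, among protein-coding genes or among genes of at least 300 bases. The limma count of 0 for replicate 3 against 4 became 3 with voom and 0 to 13 without 1 library. Genes higher in replicate 1 whose level in replicates 3 and 4 lay nearer replicate 1 numbered 16, and 8 after rescaling. The cause of these shifts was not tested.

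With the replicate block, treatment calls in replicates 1 and 2 went from 0 to 227, and in replicates 3 and 4 from 2582 to 1827. Without the block, the 2582 became 998 with no filter on low values, where more genes are tested, 4221 with voom, and 871 to 3216 without 1 library: 908 without control replicate 3, 871 without control replicate 4, 1366 without magnolin replicate 3 and 1202 without magnolin replicate 4. For position (alternatives chosen after seeing the data), a pseudocount of 0.1 gave medians of -0.45 on chromosome 6 and 0.34 on chromosome 15 (0.28 in the reported setting). In windows it gave -0.79 (chromosome 6, 0 to 10 Mb), -0.90 (chromosome 5, 40 to 50 Mb) and 0.87 (chromosome 19, 50 to 60 Mb). A mean FPKM of at least 5 gave -0.58 and 0.84 in the first and last of these. Without the genes past 2-fold the window at 50 to 60 Mb of chromosome 19 gave 0.60 and that at 80 to 90 Mb of chromosome 8 gave 0.72. Depth limits genes of few reads, and 1 library per replicate and treatment leaves no test of their interaction.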

Other observations

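Of 12 measured Wnt and Notch genes, 3 were at least 2-fold higher in replicate 1 and 1 in replicate 2 (median 0.03), and of 9 stem and plasticity markers 3 and 0 (median 0.11). Of 15 YAP-TEAD targets 1 passed in each direction (median -0.17), against 3.18% and 2.36% of all measured genes. From that last list, the ectonucleotidase NT5E (CD73) read 114, 106 and 127 FPKM in replicate 1 and 15.03, 17.5 and 29 FPKM in replicate 2, and the surface glycoprotein CD24, a stem and plasticity marker, read 71.2, 73.3 and 73.9 FPKM against 14.8, 18.6 and 24.0. The Notch ligand JAG2 read 14.1, 11.2 and 17.9 FPKM against 3.32, 3.75 and 2.85, and the Notch target HEY1 2.04, 2.02 and 2.06 FPKM against 0.275, 0.198 and 0.267. The Wnt receptor FZD2 lay the other way, at 9.15, 6.87 and 7.66 FPKM against 30.1, 19.9 and 20.5. In replicates 3 and 4, normalized separately, CD24 was at 19 to 33.8 FPKM and NT5E at 12.9 to 32.1 FPKM, below every replicate 1 library.

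Of 8 measured replication-dependent histone genes, 2 were at least 2-fold higher in replicate 2 and 0 in replicate 1. The linker histone HIST1H1C read 15.1, 30.3 and 19.7 FPKM in replicate 1 and 55.4, 89.1 and 58.6 FPKM in replicate 2. It lies on chromosome 6 in the window at 20 to 30 Mb, whose median over genes was -0.49. Cystathionine gamma-lyase (CTH), which makes cysteine, read 2.79, 4.14 and 1.84 FPKM against 9.31, 18.0 and 17.5, and the ketosteroid reductase AKR1C3, which has close copies, 1.26, 1.48 and 1.44 FPKM against 16.03, 10.5 and 13.97.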
